A study of Mus musculus with 5 samples.

Results

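The 5p arms made from 1 X-linked miRNA polycistron, mmu-miR-322-5p, mmu-miR-503-5p, mmu-miR-351-5p, mmu-miR-542-5p, mmu-miR-450a-5p and mmu-miR-450b-5p, were described in Drosha knockout and empty-vector OP9 cells. The members were chosen by their names and shared genomic position, with earlier values of the knockout against empty-vector contrast already known. They are 6 of the 1105 mature miRNAs listed, and all 6 had reads. The values of that contrast are therefore given as a description, and the members' counts are no support for a direction. OP9 is a mouse bone-marrow stromal line that can form adipocytes, labelled here as a mesenchymal stem cell. Small RNA was read in 2 libraries of OP9 cells with a Drosha knockout and in 3 libraries of OP9 cells given an empty vector, whose genotype is labelled WT. Both groups had been kept under 1 µM rosiglitazone, an agonist of the adipogenic nuclear receptor PPARγ, and were collected at day 10 of adipogenic differentiation. The labels do not say whether a group was 1 clone or a pool, how Drosha was targeted or whether libraries came from separate cultures, so the spread between libraries, which the test below rests on, may be technical.

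Drosha is the nuclear RNase III enzyme that cuts hairpins out of primary miRNA transcripts, and a polycistron is a primary transcript from which several hairpins are cut. After export, Dicer trims each hairpin to a duplex, and one arm is loaded into Argonaute, where bases 2 to 8 from the 5′ end, the seed, pair with target mRNAs. miR-322 is the mouse counterpart of human miR-424, and with miR-503 it is known for restraining the cell cycle through targets such as cyclin D1 and Cdc25a.

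The mature sequences are shown because their seeds place the members in separate families although they lie on the same strand of a short stretch of chromosome X. All 6 were matched in RefSeq on GRCm38.p6, on the minus strand, and the capitals mark bases 2 to 8.
miR-322-5p: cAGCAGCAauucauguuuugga
miR-503-5p: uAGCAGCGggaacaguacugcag
miR-351-5p: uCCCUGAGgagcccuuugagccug
miR-542-5p: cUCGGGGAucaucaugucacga
miR-450a-5p: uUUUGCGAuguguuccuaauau
miR-450b-5p: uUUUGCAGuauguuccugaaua
The relatives miR-16-5p and miR-125b-5p are printed for comparison of the seed.
miR-16-5p: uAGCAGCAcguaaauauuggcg
miR-125b-5p: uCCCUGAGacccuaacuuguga

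miR-322-5p has the whole seed of the miR-15/16 family, and over bases 1 to 8 it differs from miR-16-5p only by C1U, counted from 1 at the 5′ end with the base of miR-322-5p first. miR-503-5p shares bases 2 to 7 of that seed and differs from miR-322-5p at base 8 by A8G. miR-351-5p has the seed of miR-125a and miR-125b, the mammalian relatives of the worm timing miRNA lin-4. miR-450a-5p and miR-450b-5p have the same base at 15 of 22 positions, and their seeds differ by G7A and A8G. No other listed miRNA with a RefSeq sequence had bases 2 to 8 of miR-503-5p, miR-450a-5p or miR-450b-5p. miR-542-5p shared its seed with miR-6966-5p alone, which had a mean of 0.174 TPM in empty-vector cells; neither knockout library had a read of it, which allows up to 3 reads.

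On GRCm38 the 7 hairpins span 6353 bases of chromosome X. In the direction of the strand the order is Mir322 (chrX:53054255-53054349), Mir503 (chrX:53053984-53054054), Mir351 (chrX:53053255-53053353), Mir542 (chrX:53049403-53049487), Mir450-2 (chrX:53048299-53048367), Mir450-1 (chrX:53048154-53048244) and Mir450b (chrX:53047997-53048078). The first 3 hairpins lie within the RefSeq long noncoding RNA gene C430049B03Rik (chrX:53053112-53057190), and the other 4 lie downstream of its annotated end. Mir503 begins 200 bases after Mir322, whereas 3767 bases separate Mir351 from Mir542. miR-450a-5p has an identical mature sequence in Mir450-1 and Mir450-2, so its reads cannot be assigned to either hairpin. Both entries held 71 and 65 reads in the knockout, and in empty-vector cells Mir450-2 held 1210, 925 and 877 reads and Mir450-1 held 1209, 927 and 878. The entry at Mir450-1 was used. No 3p arm of the 7 hairpins is among the listed miRNAs, so none was analysed here, and for miR-542 the 3p arm is the better-known product.

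Values are the authors' TPM, reads divided by the length of the mature miRNA and scaled to a fixed sum in each library. Levels of different members are compared by TPM only, since other differences in how well each sequence is read were not corrected. Recovered read totals, summed over every pair of miRNA and precursor, were 277142 to 304722 in knockout libraries and 1918589 to 2262367 in empty-vector libraries. The means differed 7.11-fold, so the knockout values carry more counting error. Such totals can count a read more than once, as for miR-450a-5p. With 1 pair for each mature miRNA, the totals were 200659 to 214264 in knockout libraries and 1347800 to 1613590 in empty-vector libraries. At 22 bases, 1 read was worth 3.32 to 3.67 TPM in the knockout libraries and 0.448 to 0.528 TPM in the empty-vector libraries. All 7 mesenchymal marker miRNAs were detected, and their summed level was 110300 to 110559 TPM in knockout libraries and 107003 to 117518 TPM in empty-vector libraries. Most of that sum was let-7b-5p, a broadly expressed let-7 (mean 85343 TPM over the 5 libraries); without it the sum was 22864 and 34008 TPM in knockout libraries and 20815 to 25579 TPM in empty-vector libraries. Of 15 marker miRNAs of other cell types, all read as 5p arms except miR-451a, 10 had no read in any library. Their 3p arms were not looked at, so the lack of reads does not show that these miRNAs were absent. The 15 markers summed to 65.9 to 109.8 TPM in knockout libraries and 42.2 to 48.6 TPM in empty-vector libraries. The erythroid miR-451a had the highest mean of the 15 over the 5 libraries, at 19.9 TPM. Without it the sum was 46.0 and 51.2 TPM in knockout libraries and 35.2 to 40.6 TPM in empty-vector libraries. Most of the empty-vector sum thus came from other markers. The part of the sum in the results was not tested. In bulk RNA, fewer cells of a type and less RNA per cell cannot be told apart.

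The members' summed level was below the whole empty-vector range in each of the knockout libraries. The 6 members summed to 14429 and 12349 TPM in the knockout libraries, against 26081, 30459 and 16932 TPM in the empty-vector libraries. The lowest empty-vector sum, that of library 3, was well below the other empty-vector libraries and nearer to the knockout. They came from 3554 to 4535 reads per knockout library and 33314 to 63374 reads per empty-vector library. Of all listed TPM the members took 1.34% ± 0.147 (SD, n = 2) in knockout cells and 2.45% ± 0.690 (SD, n = 3) in empty-vector cells, 1.83-fold less in the knockout. All listed TPM here is the total over every pair of miRNA and precursor. No test is given for a sum over these members.

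**Figure D1:**
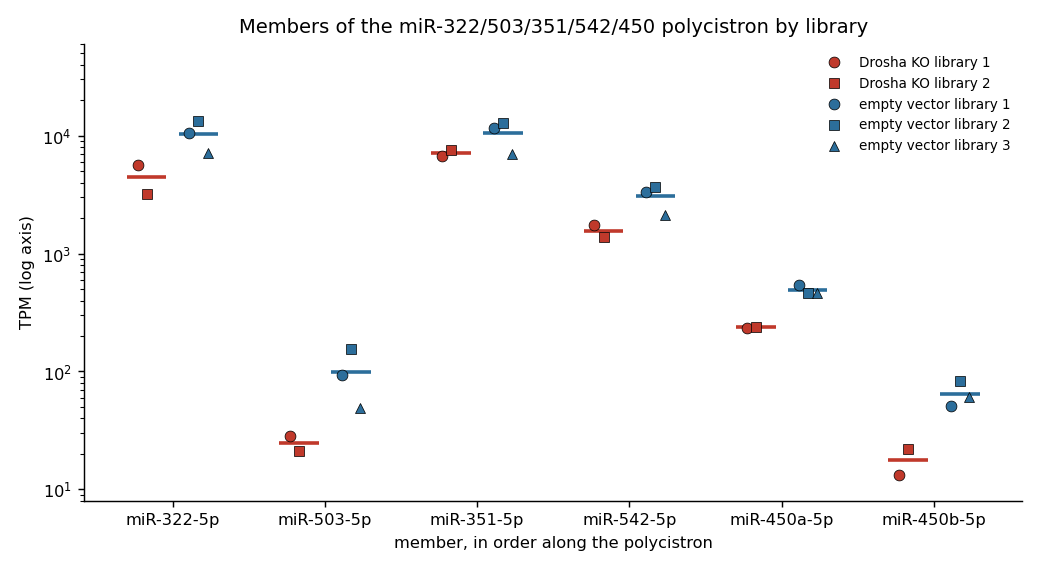
TPM of each member (log axis) in the 2 Drosha knockout and 3 empty-vector libraries; each symbol is 1 library and each horizontal line the group mean. The groups are separate for 5 members, while for miR-351-5p the empty-vector library 3 at 7023 TPM lies between the knockout libraries at 6748 and 7502 TPM.

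All 6 members passed the filter of a mean of at least 5 TPM, with means above it in each group on its own. Of them 5 were called lower in the knockout, 0 higher, and miR-351-5p was not called (limma on log2(TPM + 1), Benjamini-Hochberg adjusted p under 0.05). Of all 205 tested miRNAs the same fit called 57 higher and 56 lower, so that 27.3% were called lower. The contrast was known when the members were chosen, so nothing is read from this count. The knockout libraries lay below every empty-vector library for 5 members, and this held for 38.0% of all tested miRNAs. The median log2 change was -1.14 over the 6 members and -0.08 over all tested miRNAs. The split of calls depended on scaling, at 41 higher and 83 lower after trimmed-mean (TMM) rescaling, and 4 higher and 169 lower when the sum of 4 Drosha-independent miRNAs (miR-484, miR-877-5p, miR-1981-5p and miR-1839-5p) was set equal in all libraries. Those rescalings moved the median of all tested miRNAs to -0.51 and -2.72. Measured from the median of the same fit, the members' log2 changes ran from -1.75 to -0.43 as deposited. They ran from -1.71 to -0.40 after TMM and from -1.51 to -0.31 after the Drosha-independent rescaling. A rescaling divides each library by a factor, which shifts all log2 changes nearly alike. These distances from the median are therefore similar by construction and are no check on scaling.

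**Figure D2:**
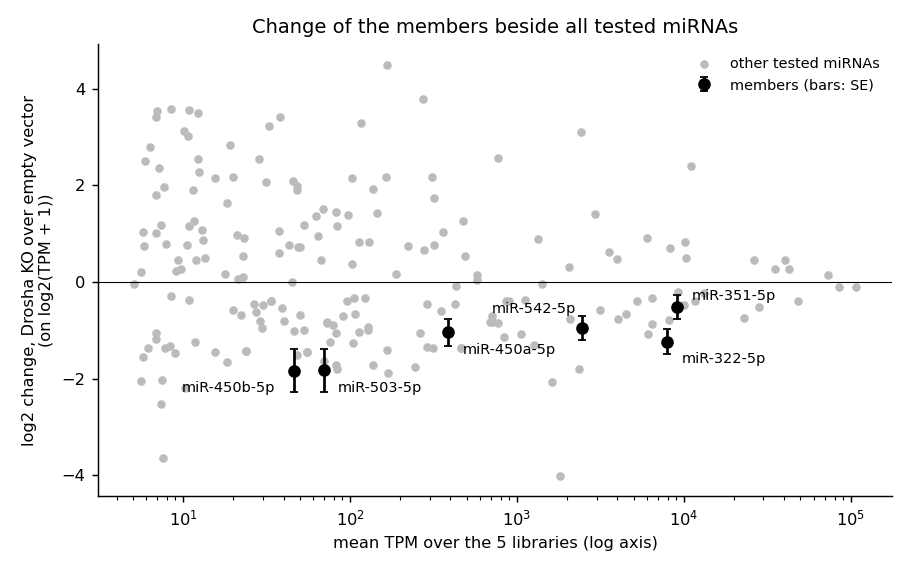
Log2 change of Drosha knockout over empty vector against mean TPM (log axis) for the 205 tested miRNAs; the members are black with standard errors and the others grey. The members run from -0.51 for miR-351-5p to -1.83 for miR-503-5p and miR-450b-5p, and all tested miRNAs run from -4.01 to 4.50.

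The pair with miR-15/16-type seeds lies at the 5′ end of the cluster and was lower in the knockout at very different levels. miR-322-5p had 5673 and 3186 TPM in the knockout libraries, against 10443, 13255 and 7197 TPM in the empty-vector libraries. Both knockout values were below all empty-vector values, and knockout library 2 had the lowest. The knockout mean of 4430 ± 1758 TPM (SD, n = 2) was 2.32-fold lower than the empty-vector mean of 10299 ± 3032 TPM (SD, n = 3), and the log2 change was -1.23 (SE 0.26). By mean level it ranked 28 of all listed miRNAs in knockout cells and 15 in empty-vector cells.

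miR-503-5p had 28.6 and 21.0 TPM in the knockout libraries, against 92.6, 156.6 and 49.4 TPM in the empty-vector libraries. The groups did not overlap, and the empty-vector libraries spread 3.17-fold, the widest of the 6 members. The log2 change was -1.83 (SE 0.44). Its knockout values rest on 9 and 6 reads, for which exact 95% Poisson intervals, covering counting error only, are 13.1 to 54.2 TPM and 7.72 to 45.8 TPM. The interval of empty-vector library 3, at 98 reads, is 40.1 to 60.3 TPM and overlaps both.

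miR-503-5p was the less abundant of the pair in every library, although its hairpin is the nearest neighbour of Mir322. For each 100 TPM of miR-322-5p there were 0.503 and 0.660 TPM of miR-503-5p in the knockout libraries, against 0.886, 1.18 and 0.687 TPM in the empty-vector libraries. The knockout ratios were the lowest, with knockout library 2 close to empty-vector library 3.

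miR-351-5p, which carries the miR-125 seed, had the log2 change nearest to 0 of the 6. It had 6748 and 7502 TPM in the knockout libraries, against 11620, 12798 and 7023 TPM in the empty-vector libraries. The groups overlapped, since empty-vector library 3 was below knockout library 2. It averaged 7125 ± 534 TPM (SD, n = 2) in knockout cells and 10481 ± 3051 TPM (SD, n = 3) in empty-vector cells. The log2 change of -0.51 (SE 0.24) was not called. Without empty-vector library 3 the log2 change was -0.78 and it was called lower. It was also called lower after TMM rescaling (-0.91), median-of-ratios rescaling (-0.59) and rescaling to the Drosha-independent sum (-3.03). Measured from the median of all tested miRNAs, its change was -0.43 as deposited and -0.40 and -0.31 under the TMM and Drosha-independent rescalings. These are similar by construction, as a rescaling shifts all miRNAs nearly alike.

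miR-542-5p, the 5p arm of a hairpin whose 3p arm is known to target survivin in human cells, was intermediate in both level and change. It had 1732 and 1379 TPM in the knockout libraries, against 3332, 3705 and 2138 TPM in the empty-vector libraries. The groups did not overlap, and empty-vector library 3 was again the lowest of its group. The knockout mean of 1555 ± 250 TPM (SD, n = 2) was 1.97-fold lower than the empty-vector mean of 3058 ± 819 TPM (SD, n = 3), and the log2 change was -0.95 (SE 0.25).

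The miR-450 members lie at the 3′ end of the cluster. miR-450a-5p had 236 and 238 TPM in the knockout libraries, against 541.6, 463 and 463 TPM in the empty-vector libraries. The values within each group were close, with a coefficient of variation of 0.841% over knockout libraries and 9.29% over empty-vector libraries, where the other 5 members had 24.6% to 54.2%. It was 2.06-fold lower in the knockout, with a log2 change of -1.04 (SE 0.28). The 2 knockout values differ by less than their counting error, since the exact 95% Poisson intervals of 71 and 65 reads run from 184 to 297 TPM and from 184 to 304 TPM.

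miR-450b-5p had 13.3 and 22.001 TPM in the knockout libraries, against 51.1, 82.4 and 61.2 TPM in the empty-vector libraries. The groups did not overlap, and the log2 change was -1.83 (SE 0.44). The knockout values rest on 4 and 6 reads, with exact 95% Poisson intervals of 3.62 to 34.0 TPM and 8.07 to 47.9 TPM, and the interval of the second overlaps that of empty-vector library 1 (42.1 to 61.4 TPM). The members with the most negative changes, miR-503-5p and miR-450b-5p, were thus also those with the fewest reads, and what low counts contribute to the size of their change was not tested.

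Of the 5 calls, 3 depended on a single library. Without knockout library 2, which leaves 1 knockout library, the log2 changes of these 3 were -0.82 for miR-322-5p, -1.62 for miR-503-5p and -0.78 for miR-542-5p. Without empty-vector library 1, miR-542-5p (-0.86) was not called. Of all 205 tested miRNAs that fit called 34 lower, against 56 as deposited. With reads thinned to equal totals 3 of the members were called lower, beside 34 of all 211 tested miRNAs. In the thinned fit miR-503-5p (-1.63) and miR-542-5p (-0.95) were not called. Thinning was a single random draw, and miR-542-5p fell just short of the threshold, so another draw may give another call.

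The order of mean levels was the same in both groups. In the knockout it was miR-351-5p, miR-322-5p, miR-542-5p, miR-450a-5p, miR-503-5p and miR-450b-5p, and only miR-503-5p and miR-450b-5p overlapped as neighbours. In the empty-vector group neighbours overlapped between miR-351-5p and miR-322-5p and between miR-503-5p and miR-450b-5p. By TPM, level did not follow position, since the least abundant members, miR-503-5p and miR-450b-5p, lie near opposite ends of the hairpin array.

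**Figure D3:**
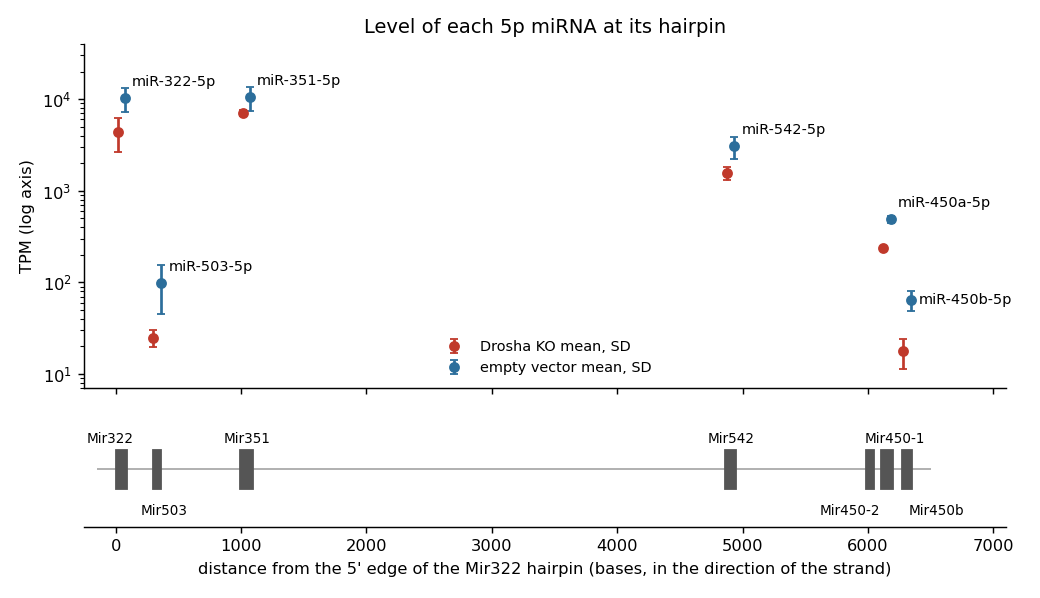
Upper panel, group mean TPM (log axis) with SD of each member (n = 2 knockout, n = 3 empty vector) at its hairpin, the groups set slightly apart sideways; lower panel, the 7 hairpins to scale by distance in bases from the 5′ edge of Mir322. miR-450a-5p is drawn at Mir450-1; miR-503-5p, 200 bases from Mir322, averaged 24.8 TPM in knockout cells and 99.5 TPM in empty-vector cells, far below its neighbours.

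The balance of the 2 most abundant members, miR-322-5p and miR-351-5p, varied less among the empty-vector libraries than between the knockout libraries. miR-322-5p and miR-351-5p together made up 86.1% and 86.6% of the summed TPM in the knockout libraries and 84.0% to 85.5% in the empty-vector libraries. miR-322-5p alone took 39.3% and 25.8% in the knockout libraries, against 40.0%, 43.5% and 42.5% in the empty-vector libraries. The ratio of miR-351-5p to miR-322-5p was 1.19 and 2.35 in the knockout libraries, against 1.11, 0.966 and 0.976 in the empty-vector libraries. Knockout library 2 stood apart in both measures, while knockout library 1 was just outside the empty-vector values. These ratios are taken within a library, so no rescaling of libraries alters them, and the reads behind those of library 2 (2232 for miR-351-5p and 869 for miR-322-5p) are many. The share of miR-542-5p varied little, at 12.0% and 11.2% in the knockout libraries and 12.2% to 12.8% in the empty-vector libraries. The shares of the less abundant members varied more among the empty-vector libraries. That of miR-450a-5p was 1.63% and 1.93% in the knockout libraries, against 2.08%, 1.52% and 2.74% in the empty-vector libraries, so the groups overlapped. That of miR-503-5p was 0.198% and 0.170% in the knockout libraries, against 0.355%, 0.514% and 0.292% in the empty-vector libraries. That of miR-450b-5p was 0.0920% and 0.178% in the knockout libraries, against 0.196%, 0.270% and 0.361% in the empty-vector libraries. The last 2 shares were lowest in the knockout libraries, where they rest on 4 to 9 reads.

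**Figure D4:**
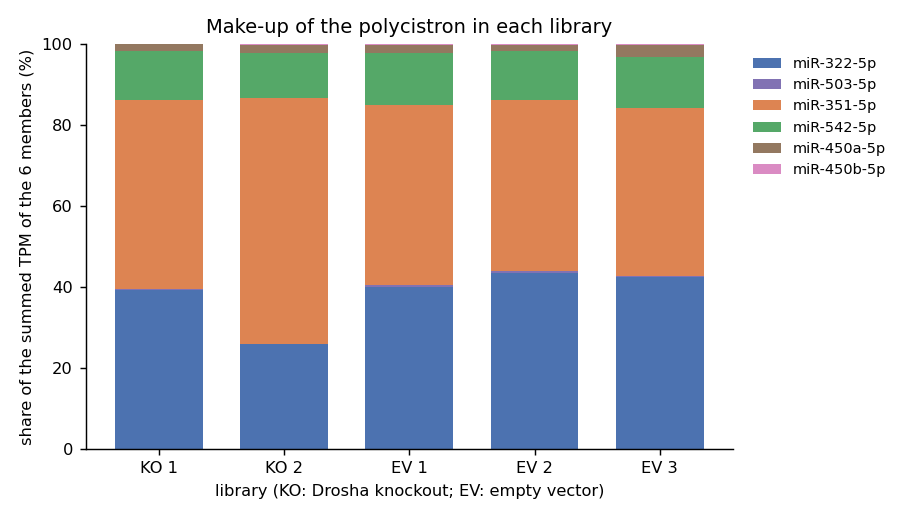
Share (%) of each member in the summed TPM of the 6 members, 1 bar per library (KO, Drosha knockout; EV, empty vector). The bar of knockout library 2 has 60.8% miR-351-5p and 25.8% miR-322-5p, whereas both stand between 40.0% and 44.6% in the empty-vector libraries.

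By TPM, miR-322-5p was the main carrier of its seed in these cells. Among the 9 listed miRNAs with that seed, 6 had reads, and miR-322-5p made up 66.0% and 57.7% of their summed TPM in the knockout libraries, against 68.6%, 67.8% and 62.8% in the empty-vector libraries. The pool averaged 7054 ± 2171 TPM (SD, n = 2) over knockout libraries and 15410 ± 4049 TPM (SD, n = 3) over empty-vector libraries. Its rest, without miR-322-5p, averaged 2624 ± 413 TPM in knockout cells and 5111 ± 1056 TPM in empty-vector cells. A list of 7 made by name held miR-15a, miR-15b, miR-16, miR-195a, miR-195b, miR-497a and miR-497b. The last was not among the 9 miRNAs found with that seed. Of the 7, 4 were tested, with a median log2 change of -0.72, and 2 were called lower and 0 higher. Over all tested miRNAs the median was -0.08, and 27.3% were called lower and 27.8% higher. miR-15b-5p (log2 change -1.80) and miR-497a-5p (-1.40) were lower, whereas miR-15a-5p (0.16) and miR-16-5p (-0.03) were not called as deposited. The call of miR-497a-5p was lost without knockout library 2 (-1.05) and after thinning (-1.20), and rescaling to the Drosha-independent sum gave calls of lower for miR-15a-5p (-2.34) and miR-16-5p (-2.55).

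The pool of the miR-125 seed overlapped between the groups, while its make-up differed. miR-351-5p made up 25.8% and 23.7% of the pool in the knockout libraries, against 36.0%, 43.8% and 26.1% in the empty-vector libraries. Empty-vector library 3 was thus nearly level with the knockout. The pool averaged 28914 ± 3847 TPM (SD, n = 2) over knockout libraries and 29494 ± 2675 TPM (SD, n = 3) over empty-vector libraries. miR-125b-5p averaged 13676 ± 1434 TPM in knockout cells and 7744 ± 928 TPM in empty-vector cells and was called higher (log2 change 0.82), and miR-125a-5p had a log2 change of -0.48 and was not called. miR-125a-5p was called lower after TMM (-0.88), median-of-ratios (-0.56) and Drosha-independent rescaling and without knockout library 2 (-0.72), and its log2 change without knockout library 1 was -0.25. The direction of miR-125b-5p held as deposited but was not called after TMM rescaling (0.42) and was lower after rescaling to the Drosha-independent sum (-1.70).

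**Figure D5:**
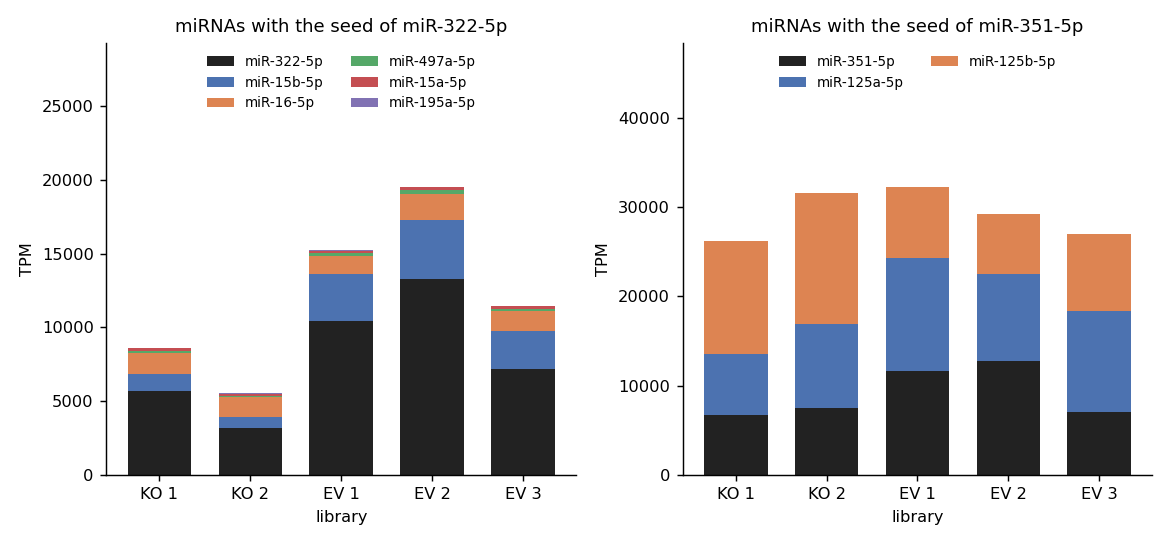
TPM of miRNAs sharing bases 2 to 8 with miR-322-5p (left) and with miR-351-5p (right), stacked within each library (KO, Drosha knockout; EV, empty vector). The left pool is 5519 to 8588 TPM in the knockout libraries and 11456 to 19548 TPM in the empty-vector libraries, while the right pool overlaps between the groups.

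Other miRNAs of chromosome X were not called lower as deposited. The median log2 change was -1.14 for the members and 0.82 for the 7 other tested miRNAs placed on X alone, of which 0 were called lower and 3 higher, beside 27.3% lower and 27.8% higher over all tested miRNAs. The number called higher was 2 without any 1 library and 1 after thinning, where the median was 1.45, and 1 with the replicate block. After TMM rescaling 1 was lower and 2 higher, and with rescaling to the Drosha-independent sum 4 of 6 were lower, 1 was higher and the median was -1.58. Positions were found for 154 of the 205 tested miRNAs. Groups of at least 3 tested miRNAs within 10 kb of each other on a strand numbered 5, of which the members formed the largest. The log2 changes within them spanned 1.32 among the 6 members, 0.69 for let-7e-5p, miR-125a-5p and miR-99b-5p on chromosome 17, 1.03 for let-7a-5p, let-7d-5p and let-7f-5p on chromosome 13, 0.98 for miR-182-5p, miR-183-5p and miR-96-5p on chromosome 6, and 3.70 for miR-17-5p, miR-20a-5p and miR-92a-1-5p on chromosome 14. These spans are a description, with no test of their difference. A span over 6 miRNAs tends to be wider than a span over 3. The lower end among the members is that of miR-503-5p and miR-450b-5p, which had 4 to 9 reads per knockout library.

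The profiles most like the cluster's sum were sought among the 90 other tested miRNAs that averaged 100 TPM or more. Likeness was the root mean square difference of log2(TPM + 1), centred on each miRNA's own mean, over the 5 libraries, and the median of the 90 was 0.55. miR-191-5p was nearest at 0.207, followed by miR-467e-5p (0.226), let-7i-5p (0.227) and miR-669f-5p (0.238). The knockout values of miR-467e-5p rest on 29 and 19 reads and those of miR-669f-5p on 27 and 17. Whether the order of these 4 exceeds counting error was not tested. miR-191-5p had 4312 and 4321 TPM in the knockout libraries, against 7689, 8910 and 7171 TPM in the empty-vector libraries. As in the cluster's sum, empty-vector library 2 was the highest and library 3 the lowest of its group. Because miR-191-5p was picked for its likeness to that sum, this is no separate result. By the same measure the members themselves lay between 0.068 for miR-542-5p and 0.63 for miR-450b-5p from their own sum, to which miR-351-5p and miR-322-5p contribute most.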

How the data were processed

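Small RNA libraries carried unique molecular identifiers and were sequenced on DNBSEQ, per the labels' protocols. Per the submitters' processing notes, Bowtie2 2.5.1 was among the tools and GRCm38 among the builds; how reads were counted is not given. The authors deposited TPM values for 1191 pairs of miRNA and precursor, and of several pairs for a mature miRNA that of the highest mean entered. Whole reads were recovered for 100% of the 536 pairs with reads by searching lengths of 15 to 30 bases (tolerance 1e-06); the lengths found for the members, 22 to 24 bases, equalled the RefSeq mature lengths. No replicate pair agreed within sampling noise (chi-square per degree of freedom 71.3 to 141.5).

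limma 3.58.1 in R 4.3.3 was fitted to log2(TPM + 1) with limma's trend option, over 205 miRNAs that averaged 5 TPM or more, two-sided, with Benjamini-Hochberg adjustment over all of them and a threshold of 0.05. The fold on this scale understates changes of low miRNAs. The procedure was run on simulated data whose spread between libraries was a set value, not taken from these libraries. That run does not show how the procedure performs at the spread seen here. P-values for the members are not given, because the members and lists were chosen with earlier results of these data known. Named miRNAs were the members, miRNAs sharing a seed and the 4 nearest profiles. Sequences and positions were from RefSeq on GRCm38.p6, where 938 of 1105 listed miRNAs had a sequence. Alternatives were other pseudocounts, filters, scalings, precursor sums, a single random thinning, robust variance, a replicate block and leaving out each library.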

Additional observations from a re-analysis of the deposited data

How the results depend on the processing

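All 95 recomputed log2 changes of the members, over 16 alternatives, were negative, and 84 kept their side of the threshold. At a filter of 50 TPM miR-450b-5p was not tested. Many of these signs were fixed in advance, since other filters and robust variance leave a log2 change as it was. Leaving out 1 library also cannot reverse the members whose groups do not overlap. The count of negative values is thus no measure of robustness. Leaving out 1 library at a time gave ranges of -1.65 to -0.82 for miR-322-5p, -2.25 to -1.43 for miR-503-5p, -0.78 to -0.34 for miR-351-5p and -1.18 to -0.78 for miR-542-5p, 2 to 6 members called lower, 34 to 52 of all tested miRNAs lower and 39 to 55 higher, and -1.08 to -0.65 for the log2 difference of the members' sum. Thinning to equal reads left miR-503-5p (-1.63) and miR-542-5p (-0.95) not called, with 3 members and 34 tested miRNAs lower and 32 higher. miR-351-5p passed after TMM (-0.91), median-of-ratios (-0.59) and Drosha-independent rescaling (-3.03). The sum's difference, -0.83 as deposited, was -1.23 after TMM and -3.35 after Drosha-independent rescaling, where 169 were lower and 4 higher; at 50 TPM or more 31 were higher. The causes were not tested, but fewer reads and fewer miRNAs enter the thinned and filtered fits by construction. With the replicate number as a replicate block, miR-351-5p was called (-0.78) and 35 miRNAs were lower. Empty-vector library 3 has no partner, so this equals leaving it out with fewer degrees of freedom. Deviations of same-numbered libraries correlated at -0.117 and -0.135 across miRNAs. With 2 knockout libraries these deviations mirror each other, and the labels give no pairing, so the numbers were not taken as pairs; whether libraries share a culture is not known. Knockout depth limits miR-503-5p and miR-450b-5p most, at 4 to 9 reads per library.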
